A study of Mus musculus with 9 samples.

Results

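The 9 genes described here belong to the Nodal pathway of mouse embryonic stem cells. They were chosen by name: the ligand genes Nodal and Gdf3, the co-receptor gene Tdgf1, the receptor gene Acvr2b, the extracellular inhibitor genes Lefty1, Lefty2 and Cer1, and the intracellular inhibitor genes Smad7 and Skil. All 9 were found among the 19938 genes with a value, each on 1 array feature (transcript cluster) that carries that gene symbol alone. Expression was measured on Affymetrix whole-transcript arrays, 3 per group. The ß-catenin null Eα group lacked both ß-catenin alleles and stably carried a construct that joins E-cadherin to α-catenin. The ß-catenin null group lacked both alleles and had no construct. The ß-catenin flox/- group, labelled as control cells, had 1 deleted and 1 floxed allele, so every group lacked at least 1 intact copy. All cells had a mixed S129S6-C57BL/6 background and grew on gelatin in medium with 15% serum and, at 1000 U/ml, the cytokine LIF. The labels do not say whether a group was 1 clone or several, nor what promoter drove the construct, so genotype and cell line cannot be told apart, and the p-values measure the spread between these samples.

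Nodal is a secreted ligand of the TGF-β family that acts through activin receptors. It needs a membrane-bound co-receptor, Cripto, which Tdgf1 encodes, and it signals through SMAD2 and SMAD3 with SMAD4 and the DNA-binding partner FOXH1. The pathway switches on genes for its own inhibitors, among them the Lefty proteins, and in the early mouse embryo it patterns the epiblast and induces mesoderm and endoderm. Mouse embryonic stem cells make Nodal, Cripto and Lefty proteins in culture.

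Values are log2 RMA signals (robust multi-array average), so a difference of 1 is a 2-fold change. A gene was called when limma's adjusted p (Benjamini-Hochberg over all 19938 genes) was under 0.05. Errors of group means are SD with n = 3 arrays, and errors of differences are limma's standard errors. A level can be compared between groups for 1 gene and not between genes, because probes differ in brightness. RNA came from whole cultures, so fewer cells of a kind and less RNA per cell cannot be told apart.

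The array medians lay between 5.95 and 6.06, and the quartiles differed by group. The lower quartiles were 4.56 to 4.63 in null Eα, 4.52 to 4.55 in null and 4.37 to 4.40 in flox cells. The upper quartiles ran the other way, at 7.83 to 7.93, 7.93 to 7.99 and 8.15 to 8.21. What this does to small differences of dim or bright genes was tried only through the other scalings. Of the null Eα arrays, replicate 3 correlated more closely with the null arrays (Pearson r 0.978 to 0.980 over features) than the other replicates did (0.964 to 0.970). It also correlated more closely with each flox array (0.951 to 0.956, against 0.945 to 0.954 for the other replicates). The null Eα differences are therefore also given without replicate 3. The deleted gene Ctnnb1 had 10.23, 10.13 and 10.32 in null Eα cells, 10.55, 10.50 and 10.47 in null cells and 11.13, 11.13 and 11.21 in flox cells, lower in both deleted lines on every array. Its probes need not lie in the deleted part, so the remaining signal does not measure intact mRNA. The comparison of null with flox cells called 55.2% of all genes. Of 10 stem cell markers, 9 were called lower and 1, the RNA-binding protein gene Lin28a (0.44, adjusted p = 0.00185), higher in null cells. The mean log2 level of this list was 10.03 to 10.28 in null Eα, 8.23 to 8.62 in null and 10.38 to 10.42 in flox cells. Esrrb and Dppa4, which mark naive stem cells, had null means of 5.04 and 5.48, below the array medians.

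In null against flox cells, 7 of the 9 Nodal pathway genes were called, 4 higher and 3 lower, in a comparison that called 55.2% of all genes (26.5% higher, 28.7% lower). Gdf3, Lefty2 and Nodal were lower, and Skil, Smad7, Lefty1 and Tdgf1 were higher. In null Eα against flox cells, 4 of 9 were called, beside 63.7% of all genes (32.1% higher, 31.6% lower). These were Smad7, Tdgf1, Skil and Cer1, each of them higher. In null Eα against null cells, 5 of 9 were called, 3 higher and 2 lower, beside 31.7% of all genes (13.6% higher, 18.1% lower). Gdf3, Lefty2 and Tdgf1 were higher, and Skil and Lefty1 lower. The median difference over the 9 genes was 0.18, 0.46 and 0.20 in these 3 comparisons, beside 0.06, 0.07 and 0.05 over all genes. The comparisons share arrays with each other, so their results are not independent. Without null Eα replicate 3, null Eα against flox called 5 of the 9 genes and null Eα against null called 6, with Nodal (lower) and Cer1 (higher) added. Of all calls, 48.0%, 50.4% and 43.0% were higher, and this split moved to 62.4%, 71.0% and 68.8% when each chromosome was centred on the median of its brighter genes. Centring each array on its own median gave 40.1% higher in null Eα against flox, and leaving out dim genes gave 29.9% (2415 higher and 5650 lower).

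**Figure D1:**
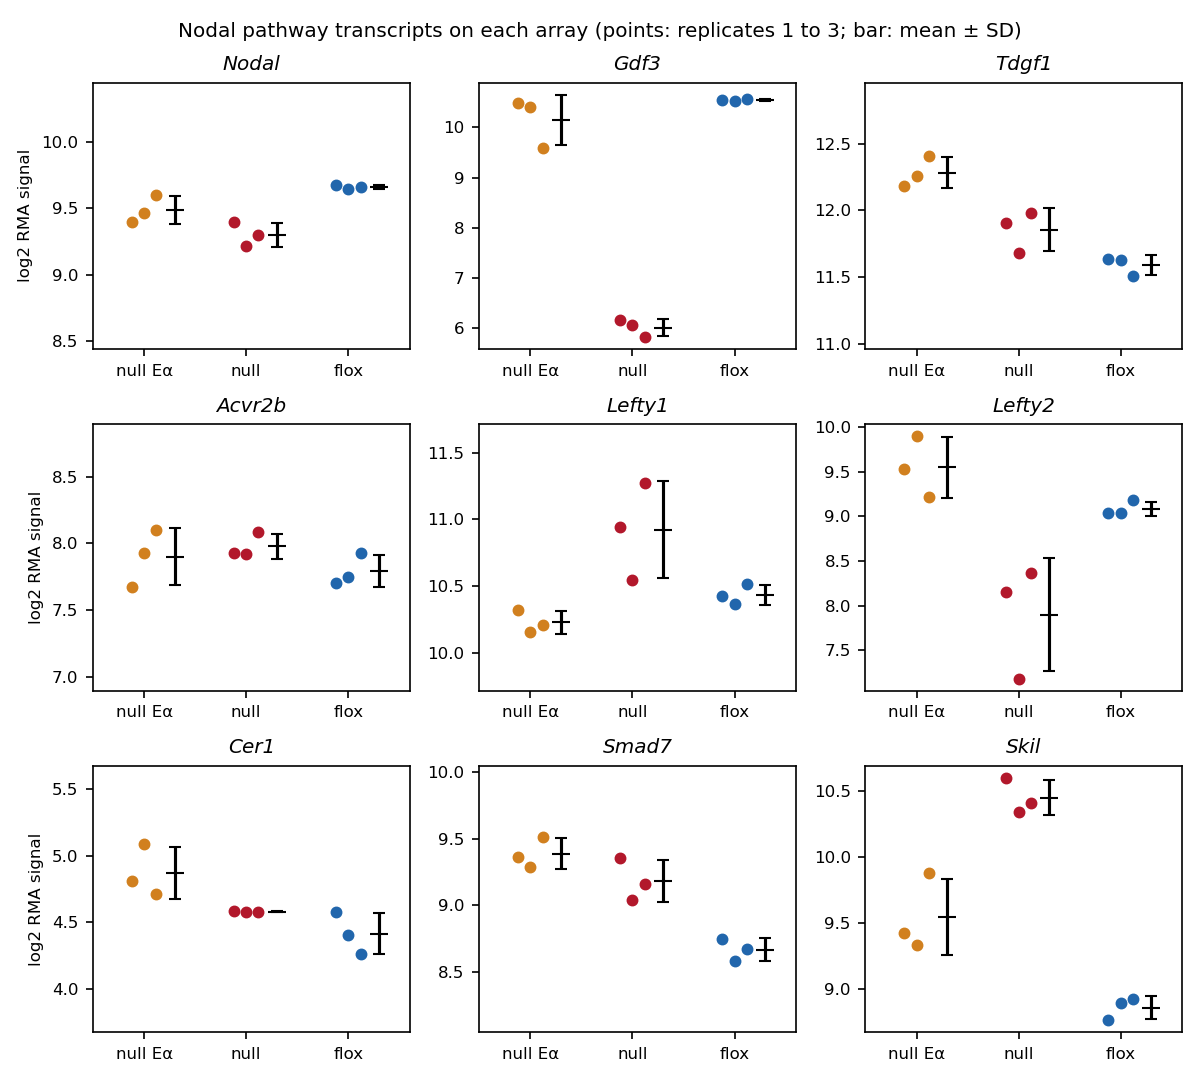
Log2 RMA signal (vertical axis, a separate range in each panel) of the 9 Nodal pathway genes on each array, for null Eα, null and flox cells from left to right. Points are replicates 1 to 3 and bars are mean ± SD. Gdf3 lies between 5.82 and 6.16 on the null arrays and above 9.5 on the other arrays, and Lefty1 and Lefty2 are displaced in opposite directions on the null arrays.

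**Figure D2:**
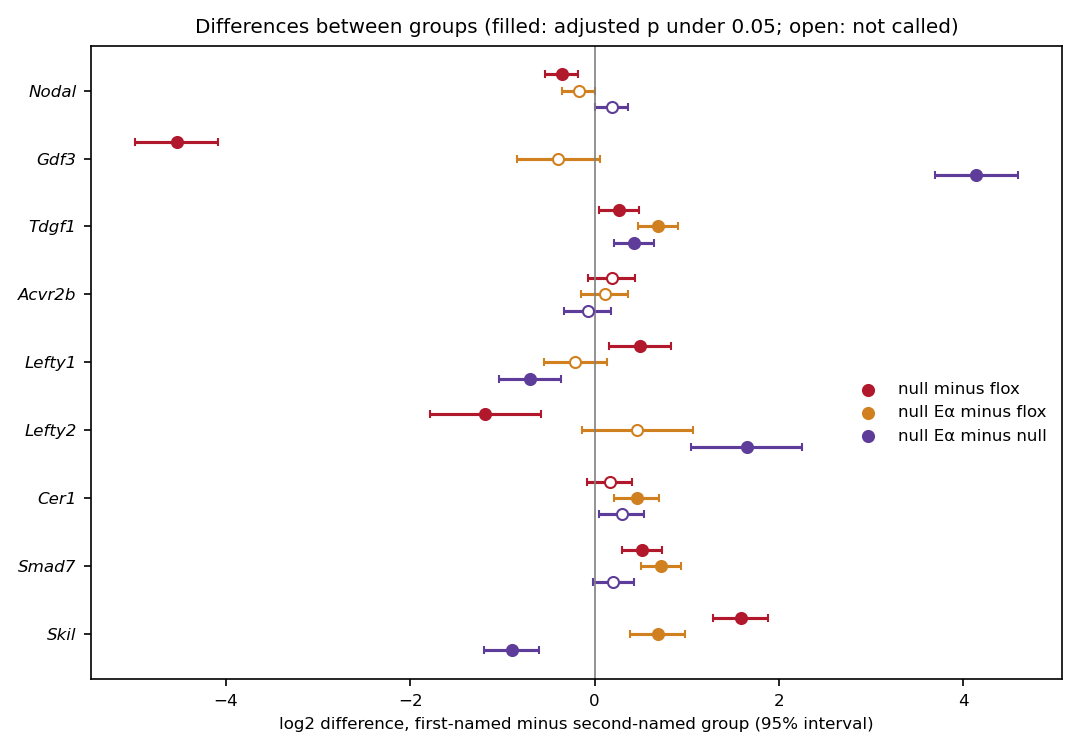
Log2 differences of the 9 genes (horizontal axis) with limma's 95% intervals for null minus flox, null Eα minus flox and null Eα minus null. Filled points were called and open points were not. Gdf3 shows the widest displacement of the 9, at -4.53 in null minus flox and 4.14 in null Eα minus null.

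RefSeq promoter windows of GRCm38.p6 were read for 4 of the 9 genes: Nodal, Tdgf1, Acvr2b and Cer1. Each window runs from 250 bases before to 50 bases after the gene start. Windows of the other genes were not read, which does not mean that these genes lack one. The windows of the ligand Nodal and its co-receptor Tdgf1 are shown because these partners were called in opposite directions in null cells. They are Nodal at chr10:61417722-61418021 on the plus strand and Tdgf1 at chr9:110946109-110946408 on the minus strand, each written along the gene. Capitals mark the motifs found, CTTTGTT in the first and CAGAC, the reverse complement of GTCTG, in the second.
Nodal: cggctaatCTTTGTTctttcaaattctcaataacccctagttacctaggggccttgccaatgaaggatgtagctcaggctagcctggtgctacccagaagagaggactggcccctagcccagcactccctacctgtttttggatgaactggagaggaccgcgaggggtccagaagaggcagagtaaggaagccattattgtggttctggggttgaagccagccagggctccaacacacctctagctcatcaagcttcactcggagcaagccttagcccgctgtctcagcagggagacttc
Tdgf1: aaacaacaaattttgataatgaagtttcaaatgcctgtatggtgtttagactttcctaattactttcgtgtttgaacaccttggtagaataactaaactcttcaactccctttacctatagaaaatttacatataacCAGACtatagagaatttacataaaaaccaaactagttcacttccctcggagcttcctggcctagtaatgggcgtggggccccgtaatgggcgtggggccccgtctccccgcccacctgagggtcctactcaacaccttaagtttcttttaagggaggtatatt

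The search covered both strands for 6 motifs. For TCF, the DNA-binding partner of β-catenin, CTTTGAT and CTTTGTT were used, and the single match in the 4 windows was CTTTGTT in Nodal, with its first base at -242 from the gene start. That motif occurs in 5.85% of all 32851 windows, and CTTTGAT in 3.73%. The short SMAD-binding element GTCTG was found once each in the windows of Tdgf1, Acvr2b and Cer1, and 49.6% of all windows hold it. The SMAD palindrome GTCTAGAC (0.213% of windows) and the FOXH1 motifs AATCCACA (0.855%) and AATNCACA (3.60%, which includes every AATCCACA) had no match in the 4 windows. A match is a match of letters in this window and says nothing about binding.

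Among the ligands, Gdf3 had the larger differences and Nodal small ones. Gdf3 encodes a TGF-β family ligand of pluripotent cells (feature 10547633, chromosome 6). Its values were 10.48, 10.40 and 9.58 in null Eα cells, 6.16, 6.05 and 5.82 in null cells and 10.54, 10.53 and 10.56 in flox cells. The null arrays lay about 4 log2 units below all others, near the median of all features on those arrays (5.98 to 6.00), and null Eα replicate 3 lay below the other null Eα arrays. Null cells averaged 6.01 ± 0.17 and flox cells 10.55 ± 0.01, a fall of 4.53 ± 0.20 or 23.2-fold (adjusted p = 3.89e-08). Whether the null signal lay above background was not measured, so both Gdf3 folds that involve null cells are read as lower bounds. In null Eα cells Gdf3 averaged 10.15 ± 0.50, which was 4.14 ± 0.20 or 17.7-fold above null cells (adjusted p = 5.75e-07), and 4.43 without null Eα replicate 3. Against flox cells, null Eα differed by -0.39 (95% interval -0.84 to 0.06, adjusted p = 0.111), and by -0.10 without replicate 3. That difference was called without null Eα replicate 1 (-0.56, adjusted p = 0.0438). Centring every chromosome on its brighter genes changed it to 0.16, since the 510 brighter genes of chromosome 6 had a median of -0.56 in null Eα against flox.

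The Gdf3 neighbourhood on chromosome 6 holds further genes of stem cells. The nearest genes with a value were Apobec1, which encodes an RNA-editing deaminase, and Dppa3, a maternal and germline factor. Dppa3 had 7.77, 7.80 and 7.22 in null Eα cells, 6.48, 5.82 and 6.17 in null cells and 8.36, 8.60 and 8.93 in flox cells, so its null arrays too were the lowest. Null minus flox was -2.48 ± 0.21 for Dppa3 (adjusted p = 3.13e-06), and was lower in null Eα than in flox cells as well (-1.04 ± 0.21, adjusted p = 0.00163). Apobec1 was lower than in flox cells in the null Eα line (-0.42 ± 0.12, adjusted p = 0.0119) and in the null line (-0.74 ± 0.12, adjusted p = 4.03e-04).

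Nodal itself (feature 10363481, chromosome 10) had 9.40, 9.46 and 9.60 in null Eα cells, 9.40, 9.22 and 9.30 in null cells and 9.67, 9.64 and 9.66 in flox cells. The flox arrays were the highest and lay within 0.03 of each other, and no array of another group reached them. Null cells averaged 9.30 ± 0.09 and flox cells 9.66 ± 0.02, a difference of -0.36 ± 0.08 or 1.28-fold lower in null (adjusted p = 0.00308). After quantile normalization the difference was -0.18 and no longer called (adjusted p = 0.0581), and it was -0.22 and still called with chromosomes centred (adjusted p = 0.0325). Null Eα differed from flox by -0.17 (95% interval -0.35 to 0.00, adjusted p = 0.0779), which was called without null Eα replicate 3 (-0.23, adjusted p = 0.0263) and with each array centred on its median (-0.26, adjusted p = 0.0191). It turned to 0.12 after quantile normalization and 0.035 when chromosomes were centred. Null Eα against null gave 0.18 (95% interval 0.01 to 0.36, adjusted p = 0.102), called after quantile normalization (0.30) and with each chromosome centred (0.25), and 0.13 without null Eα replicate 3 (not called).

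The co-receptor rose in both lines without β-catenin, while the receptor was not called. Tdgf1 (feature 10597268, chromosome 9) had 12.18, 12.26 and 12.41 in null Eα cells, 11.91, 11.68 and 11.98 in null cells and 11.64, 11.63 and 11.51 in flox cells. The 3 groups did not overlap, and null Eα was the highest of them. Null Eα exceeded flox by 0.69 ± 0.10 or 1.61-fold (adjusted p = 1.61e-04) and null by 0.43 ± 0.10 (adjusted p = 0.00789), or by 0.63 and 0.36 without null Eα replicate 3, both called. The null rise over flox was 0.27 ± 0.10 or 1.20-fold (adjusted p = 0.0402). Its call was lost without null replicate 1 or 3 or any flox array (0.20 to 0.29, adjusted p up to 0.136) and with each array centred on its median (0.23, adjusted p = 0.0713). Acvr2b, a type II activin receptor (feature 10590169, chromosome 9), had 7.68, 7.93 and 8.10 in null Eα cells, 7.93, 7.92 and 8.08 in null cells and 7.70, 7.75 and 7.93 in flox cells. All 3 groups overlapped. The null difference from flox was 0.18 (95% interval -0.07 to 0.44, adjusted p = 0.194), that of null Eα from flox 0.11 (-0.14 to 0.36, adjusted p = 0.417) and that of null Eα from null -0.08 (-0.33 to 0.18, adjusted p = 0.634). Without null Eα replicate 3 the null Eα differences were 0.0076 from flox and -0.18 from null, and were not called. Quantile normalization gave calls of 0.37 and 0.39 for null and null Eα against flox, and chromosome centring gave calls of 0.26 and 0.28.

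The Lefty genes, which encode closely related secreted antagonists of Nodal and lie next to each other on chromosome 1, went in opposite directions. Lefty2 (feature 10352302) had 9.53, 9.89 and 9.21 in null Eα cells, 8.15, 7.18 and 8.36 in null cells and 9.03, 9.03 and 9.18 in flox cells. The null arrays were lowest, null replicate 2 by almost 1 log2 unit below the next, and the null Eα arrays highest. Null cells averaged 7.90 ± 0.63 and flox cells 9.08 ± 0.08, a fall of 1.18 ± 0.27 or 2.27-fold (adjusted p = 0.00363), and of 0.83 without null replicate 2 (adjusted p = 0.00346). Null Eα cells averaged 9.55 ± 0.34, which was 1.65 ± 0.27 or 3.14-fold above null (adjusted p = 0.00125), 1.29 without null replicate 2 and 1.82 without null Eα replicate 3. Against flox, null Eα differed by 0.46 (95% interval -0.14 to 1.06, adjusted p = 0.152), and by 0.63 without its replicate 3 (adjusted p = 0.0762). The Lefty2 difference was called without null replicate 2 (adjusted p = 0.0275), with flox and null Eα alone in the fit (adjusted p = 0.0397) and after quantile normalization (0.76, adjusted p = 0.0330).

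Lefty1 (feature 10352314) had 10.32, 10.15 and 10.20 in null Eα cells, 10.95, 10.55 and 11.27 in null cells and 10.42, 10.36 and 10.51 in flox cells. Here the null arrays were the highest, and the null Eα arrays lay just under the flox arrays with no overlap. The null mean of 10.92 ± 0.36 exceeded the flox mean of 10.43 ± 0.08 by 0.49 ± 0.15 or 1.40-fold (adjusted p = 0.0190). That call was lost without null replicate 1 (0.48, adjusted p = 0.0528), null replicate 3 (0.31, 0.0575), flox replicate 1 (0.48, 0.0508) or flox replicate 2 (0.45, 0.0623). Null Eα cells, at 10.23 ± 0.08, were lower than null cells by 0.70 ± 0.15 (difference -0.70, adjusted p = 0.00616). Null Eα differed from flox by -0.21 (95% interval -0.54 to 0.13, adjusted p = 0.248), and by 0.030 after quantile normalization. Without null Eα replicate 3 the Lefty1 differences were -0.69 from null (called) and -0.20 from flox (not called).

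The displacement of the Lefty genes against each other was also taken within each array, a measure chosen after these values were seen. The Lefty2 minus Lefty1 signal was -0.79, -0.26 and -0.99 in null Eα cells, -2.79, -3.37 and -2.92 in null cells and -1.39, -1.33 and -1.34 in flox cells. Its level depends on the probes of each gene, so shifts between groups alone are read. The genes are similar in sequence, and whether probes of 1 Lefty gene also read the mRNA of the other was not tested. The shift was -1.67 for null against flox, 0.67 for null Eα against flox and 2.34 for null Eα against null, with no overlap of groups in any of the 3. By exact permutation (two-sided) each shift had p = 0.1, which is the lowest p that a comparison of 3 with 3 arrays allows. Groups without overlap give this p whatever the size of the shift, so it adds nothing to the lack of overlap. The nearest genes with a value on either side were Sde2, a replication stress factor, beside Lefty2 and Tmem63a, an ion channel, beside Lefty1. Tmem63a had 7.94, 7.75 and 8.36 in null Eα cells, 9.32, 9.50 and 10.06 in null cells and 8.09, 8.08 and 8.07 in flox cells, highest in null cells as Lefty1 was. It rose by 1.55 ± 0.19 in null against flox cells (adjusted p = 5.42e-05), and null Eα minus null was -1.61 ± 0.19 (adjusted p = 1.88e-04). Sde2 exceeded its flox level in the null Eα line (0.56 ± 0.12, adjusted p = 0.00192) and in the null line (0.34 ± 0.12, adjusted p = 0.0295).

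**Figure D3:**
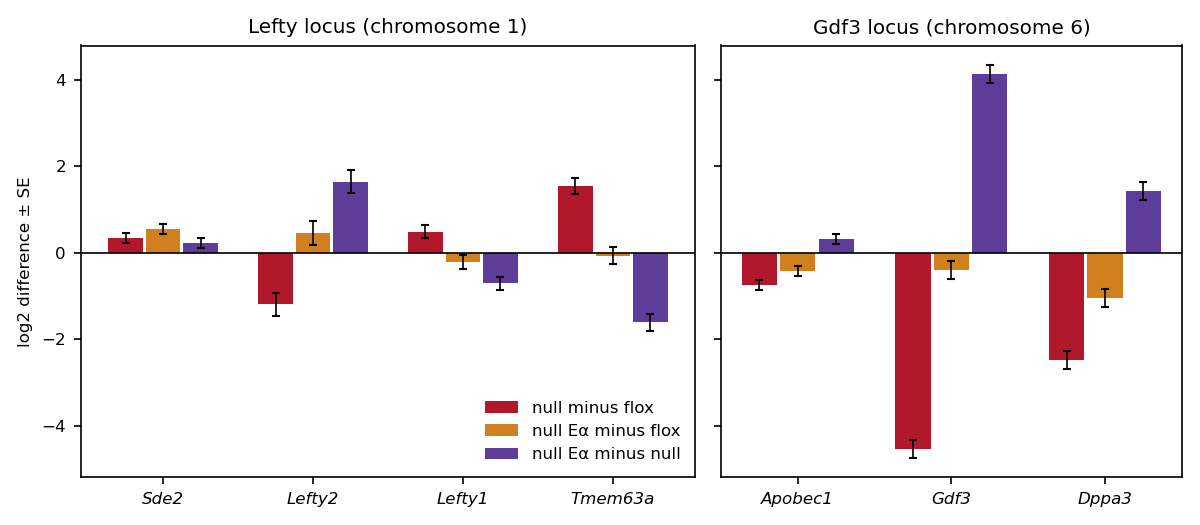
Log2 differences (vertical axis) with limma's standard errors for Lefty1, Lefty2 and Gdf3 and the nearest genes with a value on either side, in gene order along chromosomes 1 and 6. Bars give null minus flox, null Eα minus flox and null Eα minus null. In null minus flox, Lefty2 stands at -1.18 beside 0.49 for Lefty1 and 1.55 for Tmem63a, and Gdf3 at -4.53 beside -2.48 for Dppa3.

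Cer1, which encodes the secreted antagonist Cerberus-like 1 (feature 10514083, chromosome 4), was dim on every array. It had 4.81, 5.09 and 4.71 in null Eα cells, 4.58, 4.58 and 4.58 in null cells and 4.58, 4.40 and 4.27 in flox cells. Each value lay nearer to the lower quartile of its array than to the median. The gap was widest on null Eα replicate 2, at 5.09 beside a lower quartile of 4.63. The lower quartile was itself higher in null Eα (4.56 to 4.63) than in flox cells (4.37 to 4.40), and its part in the Cer1 difference was not tested. Null Eα exceeded flox by 0.46 ± 0.11 (adjusted p = 0.00465), and by 0.54 without null Eα replicate 3, but the call was lost after quantile normalization (0.24, adjusted p = 0.0689), and whether the signal lay above background was not measured. Null differed from flox by 0.16 (95% interval -0.08 to 0.41, adjusted p = 0.229). Null Eα differed from null by 0.29 (0.05 to 0.54, adjusted p = 0.0664), called without null Eα replicate 3 (0.37) and with each chromosome centred (0.37).

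The intracellular inhibitors were higher in both lines without β-catenin. Skil encodes SnoN, a repressor that binds SMAD complexes (feature 10491300, chromosome 3). It had 9.43, 9.34 and 9.88 in null Eα cells, 10.60, 10.34 and 10.41 in null cells and 8.77, 8.89 and 8.93 in flox cells. The groups did not overlap, with null highest, null Eα between and flox lowest, and null Eα replicate 3 stood nearest to null. Null cells averaged 10.45 ± 0.13 and flox cells 8.86 ± 0.08, a rise of 1.58 ± 0.13 or 3.00-fold (adjusted p = 3.35e-06). Null Eα cells averaged 9.55 ± 0.29, which was 0.68 ± 0.13 or 1.61-fold above flox (adjusted p = 0.00141) and 0.90 ± 0.13 below null (difference -0.90, adjusted p = 7.46e-04). Without null Eα replicate 3 these differences were 0.52 and -1.06. With each chromosome centred, Skil was at 1.45 in null minus flox, 0.77 in null Eα minus flox and -0.68 in null Eα minus null, all called. The 524 brighter genes of chromosome 3 had medians of 0.15, -0.09 and -0.22 in these comparisons.

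Smad7 encodes an inhibitory SMAD that blocks type I receptors (feature 10456745, chromosome 18). It had 9.36, 9.29 and 9.51 in null Eα cells, 9.35, 9.04 and 9.16 in null cells and 8.75, 8.58 and 8.67 in flox cells. Every array of either deleted line lay above every flox array, and the deleted lines overlapped each other. The rise over flox was 0.72 ± 0.10 or 1.65-fold in null Eα cells (adjusted p = 1.28e-04) and 0.52 ± 0.10 or 1.43-fold in null cells (adjusted p = 0.00117). Null Eα minus null was 0.20 (95% interval -0.01 to 0.42, adjusted p = 0.139), called after quantile normalization (0.31) and with each chromosome centred (0.30). Without null Eα replicate 3, null Eα exceeded flox by 0.66 (called) and null by 0.14 (not called).

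Markers of other cell kinds were read beside these genes. Of all genes, 55.2% were called in null against flox (26.5% higher, 28.7% lower) and 63.7% in null Eα against flox (32.1% higher, 31.6% lower). Of 11 measured fibroblast markers 9 were called higher and 0 lower in null against flox cells, and likewise 9 and 0 in null Eα against flox. Their mean log2 level was 7.60 to 7.93 in null Eα, 8.19 to 8.99 in null and 5.22 to 5.37 in flox cells, with Lox, a collagen cross-linking enzyme, at 5.41 ± 0.12 and Col1a2, a collagen I chain, at 4.82 ± 0.12 in null minus flox. Their part in the rises of Skil and Smad7 was not tested. Markers of primitive and visceral endoderm, a source of Cer1 and Lefty1 in the mouse embryo, gave 5 higher and 2 lower of 12 for null Eα against flox and 4 higher and 2 lower for null against flox. Called either way, both endoderm counts lie under those shares of all genes. Their higher calls alone lie above the shares called higher, and their lower calls under the shares called lower. With 12 markers, neither count is read as a change of endoderm. Some of the markers called higher were dim, with a null Eα mean as low as 4.01. The mean level of the endoderm list was 6.02 to 6.06 in null Eα, 6.08 to 6.10 in null and 5.90 to 6.06 in flox cells. Dab2, an endocytic adaptor, was at 1.92 ± 0.20 and Cubn, a receptor, at -0.92 ± 0.13 in null minus flox. The Dab2 rise was 0.06 on its dimmer feature (adjusted p = 0.478). Of 8 primed epiblast markers 6 were higher and 2 lower in null against flox cells, among them the growth factor gene Fgf5 at 3.75 ± 0.61 and the transcription factor gene Foxd3 at -1.61 ± 0.13. Fgf5 had 7.44, 6.91 and 9.97 in null Eα cells, so null Eα replicate 3 stood at the null level of 9.53 to 10.13.

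The other genes of the pathway were taken from 5 lists, of which 33 genes had a value. In null against flox cells 13 were higher, 8 lower and 12 not called, with a median of 0.15. Null Eα against flox gave 10 higher and 12 lower (median 0.06), and null Eα against null 4 higher and 9 lower (median -0.06). Without null Eα replicate 3 the last count was 7 higher and 13 lower. Among the pathway genes named next, null Eα calls of at least 1 log2 unit were also taken without that array. Differences from flox were then 4.28 for Inhba, -1.92 for Foxh1, 1.95 for Fst and -1.35 for Eomes. Differences from null were 0.97 for Eomes and -1.17 for Smurf2, and all of these were called. The counts of all 9 arrays, here and for each list below, stood beside the same 55.2%, 63.7% and 31.7% of all genes. In these comparisons 26.5%, 32.1% and 13.6% of all genes were called higher, and 28.7%, 31.6% and 18.1% lower.

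Among 5 measured ligand and convertase genes, 3 were higher and 1 lower in null against flox cells. Inhba, which encodes the activin A subunit, a ligand that uses the same receptors, had 9.75, 9.34 and 9.48 in null Eα cells, 10.35, 9.88 and 9.90 in null cells and 5.05, 5.45 and 5.30 in flox cells. The flox arrays lay below the array median and both deleted lines far above it. Its rise over flox was 4.26 ± 0.15 in the null Eα line (adjusted p = 3.19e-08) and 4.78 ± 0.15 in the null line (adjusted p = 5.03e-09). Pcsk6, a protease that can cleave the Nodal precursor, fell by 1.49 ± 0.11 in null cells (adjusted p = 1.56e-06). It was also called lower in null Eα against flox (-0.71 ± 0.11, adjusted p = 4.09e-04). Among 6 receptor genes, 3 were higher and 1 lower in null cells, and Tgfbr2, the type II TGF-β receptor, rose by 1.22 ± 0.09 (adjusted p = 1.52e-06). Tgfbr2 was also called higher in null Eα against flox (0.88 ± 0.09, adjusted p = 2.15e-05).

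The signal transducers gave 0 higher and 4 lower of 6 for null Eα against flox and 2 higher and 3 lower for null against flox. Of all genes, 32.1% were higher and 31.6% lower in the first comparison, and 26.5% and 28.7% in the second. Counts out of 6 genes are not read as a result about the list. Foxh1, the nuclear partner of SMAD2 and SMAD3, had 6.82, 6.68 and 7.17 in null Eα cells, 7.61, 7.56 and 7.66 in null cells and 8.77, 8.58 and 8.66 in flox cells. The groups were separate, with null Eα lowest. Null Eα minus flox was -1.78 ± 0.12 (adjusted p = 7.29e-07), and null minus flox was -1.06 ± 0.12 (adjusted p = 2.28e-05).

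Of 10 other inhibitors, 2 were higher and 2 lower in null against flox cells. Fst, which encodes the activin-binding protein follistatin, had 8.12, 7.94 and 7.31 in null Eα cells, 7.75, 7.67 and 7.14 in null cells and 6.08, 6.16 and 5.99 in flox cells. Both deleted lines were above flox, null Eα by 1.71 ± 0.21 (adjusted p = 5.72e-05) and null by 1.44 ± 0.21 (adjusted p = 1.72e-04). Tgif1, a homeodomain repressor of SMAD-driven transcription, fell by 1.63 ± 0.07 in null cells (adjusted p = 2.10e-08). It was also called lower in null Eα against flox (-0.96 ± 0.07, adjusted p = 9.76e-07). Smurf2, a ubiquitin ligase that acts on SMADs and receptors, was lower in null Eα than in null cells (difference -1.01 ± 0.12, adjusted p = 2.19e-04), and by -0.61 with chromosomes centred.

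Of 6 measured response genes, 3 were higher and 1 lower in null against flox cells. Eomes, a T-box factor of the primitive streak that responds to Nodal in the mouse embryo, had 6.37, 6.41 and 6.70 in null Eα cells, 5.37, 5.53 and 5.36 in null cells and 7.69, 7.75 and 7.77 in flox cells. Its difference from flox was -1.25 ± 0.10 in the null Eα line (adjusted p = 2.34e-06) and -2.32 ± 0.10 in the null line (adjusted p = 2.51e-08), and null Eα exceeded null by 1.07 ± 0.10 (adjusted p = 3.55e-05). Its null level lay under the array medians. Foxa2, a forkhead factor of the anterior streak and endoderm, was higher by 0.42 ± 0.10 in null cells (adjusted p = 0.00488). Both Foxa2 means, 5.96 in null and 5.54 in flox cells, lay under the array medians of their groups, and Foxa2 was among the dim genes left out. Of 7 measured primitive streak markers, with which this list shares genes, 2 were higher and 2 lower in null cells, beside 55.2% of all genes. The mean level of the streak markers was 5.92 to 6.00 in null Eα, 5.65 to 5.70 in null and 5.85 to 5.94 in flox cells.

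**Figure D4:**
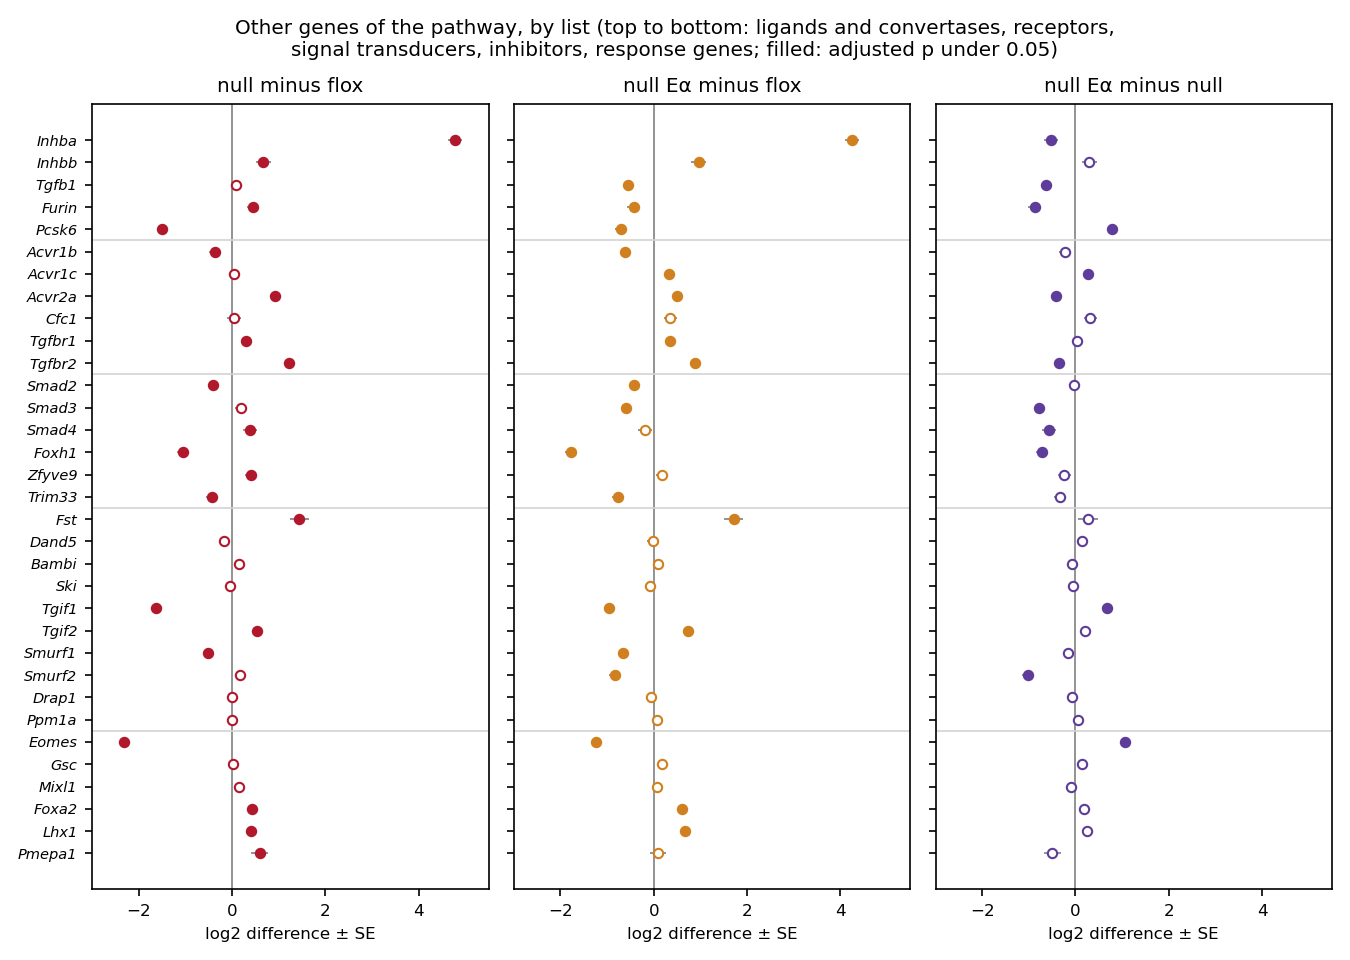
Log2 differences with limma's standard errors (horizontal axis) of 33 other genes of the pathway in null minus flox, null Eα minus flox and null Eα minus null. Genes run from ligands at the top to response genes at the bottom, and filled points were called. Inhba, at 4.78 and 4.26 against flox, lies farthest from 0, and Eomes lies lowest in null minus flox (-2.32) and Foxh1 in null Eα minus flox (-1.78).

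The nearest genes with a value beside the other pathway genes were read in the same way for null minus flox. Beside Tdgf1, Lrrc2 was at -3.77 (adjusted p = 2.01e-08) and Als2cl at -0.10 (not called), where Tdgf1 was at 0.27. Nodal, at -0.36, lies between Pald1 at -0.53 and Eif4ebp2 at -1.28, both called lower. The neighbours of Skil, Prkci and Cldn11, were called higher by 0.20 and 0.29, where Skil rose by 1.58. The brighter genes of that chromosome had a median of 0.15. Beside Smad7, Dym was at -1.60 (called) and Ctif at -0.14 (not called), and beside Acvr2b, Xylb was at -2.28 and Exog at 0.45 (both called). The Cer1 neighbours Zdhhc21 and Frem1 were not called.

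The profile of each gene over the 9 arrays, centred on its own mean, was set against those of other genes. Likeness was read as Euclidean distance. Predicted, clone-based, olfactory, vomeronasal and small RNA genes were left out by their symbols, so a nearer gene among those is not shown. Gdf3 was nearest to the zinc finger genes Zfp459 and Zfp600, at distances of 0.49 and 0.70, where the length of its own centred profile was 6.20. Skil, with a length of 2.00, was nearest to the membrane protein genes Cd109 and Tpbg (0.23 and 0.27). Lefty2, with a length of 2.32, was nearest to Cldn4, a claudin, and Lama1, a laminin chain (0.77 and 0.85), and Lefty1, with a length of 1.03, to Zswim8 and Actn1 (0.31 and 0.33). For Tdgf1, with a length of 0.90, the nearest genes were Arhgef12 and Mycs (0.22 and 0.28), and for Smad7, with a length of 0.96, Siva1 and Eddm3b (0.24 and 0.25). Nodal, with a length of 0.48, was nearest to Zfp106 and Dmac2 (0.15 and 0.18). Acvr2b lay nearest to Zfand4 and Rnf157 and Cer1 to Alpi and Gpt. These distances describe 9 arrays in 3 groups.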

How the data were processed

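The deposited table held log2 RMA signals, 1 per feature and array, which the authors made with RMA per the submitters' processing notes. The RMA version, the annotation and whether the arrays were normalized together are not given in the sources used here. Between 457 and 1256 features had exactly equal values on 2 arrays of different groups. The highest counts, 1153 to 1256, were between null Eα replicate 3 and the null arrays. That array shared 933 and 956 with the other null Eα arrays, which shared 694 to 818 with the null arrays. Of 35556 features, 21789 carried 1 gene symbol, 1621 several (left out) and 12146 were unnamed here. The feature with the highest mean was kept, giving 19938 genes. Chromosomes came from RefSeq (GRCm38.p6).

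R 4.3.3 and its package limma 3.58.1 gave the differences between groups (lmFit, eBayes, all 9 arrays, no covariate, 6 residual degrees of freedom), a fit also tested on simulated data. The labels name no batch, and scan dates, probe-level files and detection calls were not used here. Precision is limited by 3 arrays per group. Genes named beyond the 9 were pathway genes called with at least 1 log2 unit, the 2 markers per list with the largest null minus flox difference, the 2 genes nearest in profile, and the nearest measured gene on either side. Of 91 listed genes 86 had a value. The members and lists were chosen with earlier results of these data known. Alternatives covered scaling, dim genes, features, prior, groups fitted, chromosome centring, replicate block and leaving out each array. Promoter sequences are RefSeq's. Figures used matplotlib 3.10.9.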

Additional observations from a re-analysis of the deposited data

How the results depend on the processing

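Over 18 alternatives, the 27 differences of the 9 genes gave 483 values (Cer1 was left out with the dim genes), of which 448 kept direction and side of the threshold, 12 lost the call, 16 gained one and 7 changed sign. The falls of Gdf3 and Lefty2 and the rises of Smad7 and Skil in null against flox, the rises of Tdgf1, Smad7 and Skil in null Eα against flox, and the 5 calls in null Eα against null held under every alternative. The sign changes were in differences that had not been called. In null Eα against flox, Nodal changed to 0.12 after quantile normalization and 0.035 with each chromosome centred, Lefty1 to 0.030 after quantile normalization and Gdf3 to 0.16 with each chromosome centred. In null Eα against null, Acvr2b changed to 0.026 after quantile normalization, 0.026 with each chromosome centred and 0.037 without null Eα replicate 1, and leaving out 1 array gave -0.18 (without null Eα replicate 3) to 0.037. Chromosome centring moved the median of all genes to 0.18, 0.29 and 0.15 in null against flox, null Eα against flox and null Eα against null, against 0.06, 0.07 and 0.05, and gave 8 called of the 9 genes in null Eα against null. With dim genes left out, 8065 genes were called in null Eα against flox, out of fewer tested, in place of 12694. Leaving out 1 array gave 10 to 20 called of the 33 other pathway genes in null Eα against null, the highest without null Eα replicate 3, in place of 13. The cause of the other changes was not tested. The labels do not say what a replicate number marks, and not every correlation of deviations between same-numbered arrays was over 0.1 (-0.03 to 0.26), so the numbers were not taken as pairs. The best match had the same number in 12 of 18 cases, where 6 would fall so if numbers carried nothing, which is a hint of pairing from the data and not from the design. The replicate block called 11298, 12935 and 6602 genes in the 3 comparisons, in place of 11004, 12694 and 6330, and the same 7, 4 and 5 counts among the 9 genes. Signal over background was not measured. This limits the sizes given for Cer1 in all groups and for Foxa2 in null and flox cells. It also limits those for Gdf3 and Eomes against their low null values and for Inhba against its low flox values.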
